A study of Mus musculus with 5 samples.

Results

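The expression of 35 genes that repair DNA double-strand breaks or signal their presence was examined in the hippocampus of mice lacking *Hdac1* in the brain. The genes were chosen by name, as 7 genes of end joining, 12 of homologous recombination, 10 of damage signalling and 6 of the p53 response, and all 35 were found among the 23361 gene symbols measured. Hippocampi of male mice aged 3 months were profiled by RNA-seq. The 2 control mice are titled WT in the labels, and the paper describes its age-matched controls as mice with the floxed allele (*Hdac1* f/f). The 3 conditional knockout mice (*Hdac1* cKO) carried that allele with *Nestin-Cre*. This transgene removes *Hdac1* in neurons and astrocytes, and the paper still detected HDAC1 in microglia. Cells that keep the gene add to the RNA of the tissue. The paper does not report HDAC1 in oligodendrocytes. The values are FPKM, the fragments counted per kilobase of transcript and scaled to the mapped fragments of the library, as deposited. With 2 and 3 libraries the spread within each group is poorly known, and the labels do not say more of each library than its genotype, age and number.

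A double-strand break cuts both strands of DNA and can be mended along separate routes. End joining ligates the ends directly and works at any time, whereas homologous recombination copies an intact sister chromatid and is therefore tied to cells that replicate their DNA. Neurons have left the cell cycle and are known to depend on end joining, and the kinases ATM, ATR and DNA-PK spread the alarm from a break to p53, the transcription factor that halts division or triggers cell death. HDAC1 removes acetyl groups from histones, and the comparison asks whether its loss alters the RNA of these genes in young animals.

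Deletion was visible in the targeted gene. *Hdac1* was at 8.95 and 13.1 FPKM in control replicates 1 and 2, and at 1.95, 3.12 and 3.37 FPKM in cKO replicates 1, 2 and 3, so that the cKO mean was 25.5% of the control mean. Every cKO library lay below both controls (log2 difference −1.66, SE 0.21, limma adjusted p = 0.219 over 12740 genes and 0.00389 with the library set as a term). A near-identical copy, *Gm10093*, shares 98.7% of 1978 nt with the *Hdac1* transcript and could hold part of the remaining reads. The deposited values give no read totals, and an approximate estimate from the steps in low values gave 5120000 to 6750000 fragments per library. It reads the most common low value, shared by 30 to 77 genes in a library, as 1 fragment. The mean read yield per sample stated in the paper is higher than this estimate and is not given for each library. The same steps placed the libraries in sets that cross the genotypes, with control 1 and cKO 1 in set 1 and control 2, cKO 2 and cKO 3 in set 2. This split was treated as a batch of unknown origin. Differences with the set as a term in the fit, or within each set, are also given for the branches and for some genes. Genes of hippocampal neurons were present, such as *Prox1* of the dentate gyrus at 14.0 to 16.4 FPKM and *Wfs1* of CA1 at 16.2 to 25.5 FPKM (genes chosen after their values were seen).

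The 35 genes spanned a wide range of levels, and the branches stood at different heights in the tissue. The highest was *Gadd45g* (mean over the 5 libraries 16.5 FPKM), which exceeded 63.1% of the 12740 genes that averaged 1 FPKM or more, and the lowest was *Bard1* at 0.181 FPKM. All 7 end joining genes and all 6 p53 response genes reached a mean of 1 FPKM, against 6 of 12 homologous recombination genes and 8 of 10 damage signalling genes. The 8 below that level were *Rad54l*, *Brca1*, *Brca2*, *Palb2*, *Bard1* and *Blm* of recombination and the checkpoint kinases *Chek1* and *Chek2*. The remaining 27 genes were tested. Genes of dividing cells were also low in these libraries, with *Mki67* at 0.225 to 0.406 FPKM and *Top2a* at 0.336 to 0.658 FPKM. Somewhat higher were *Ccna2* (0.800 to 1.70 FPKM), *Mcm2* (0.886 to 2.04 FPKM) and *Mcm5* (1.14 to 1.64 FPKM). *Pcna*, which also serves repair, stood at 41.8 to 49.1 FPKM.

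**Figure D1:**
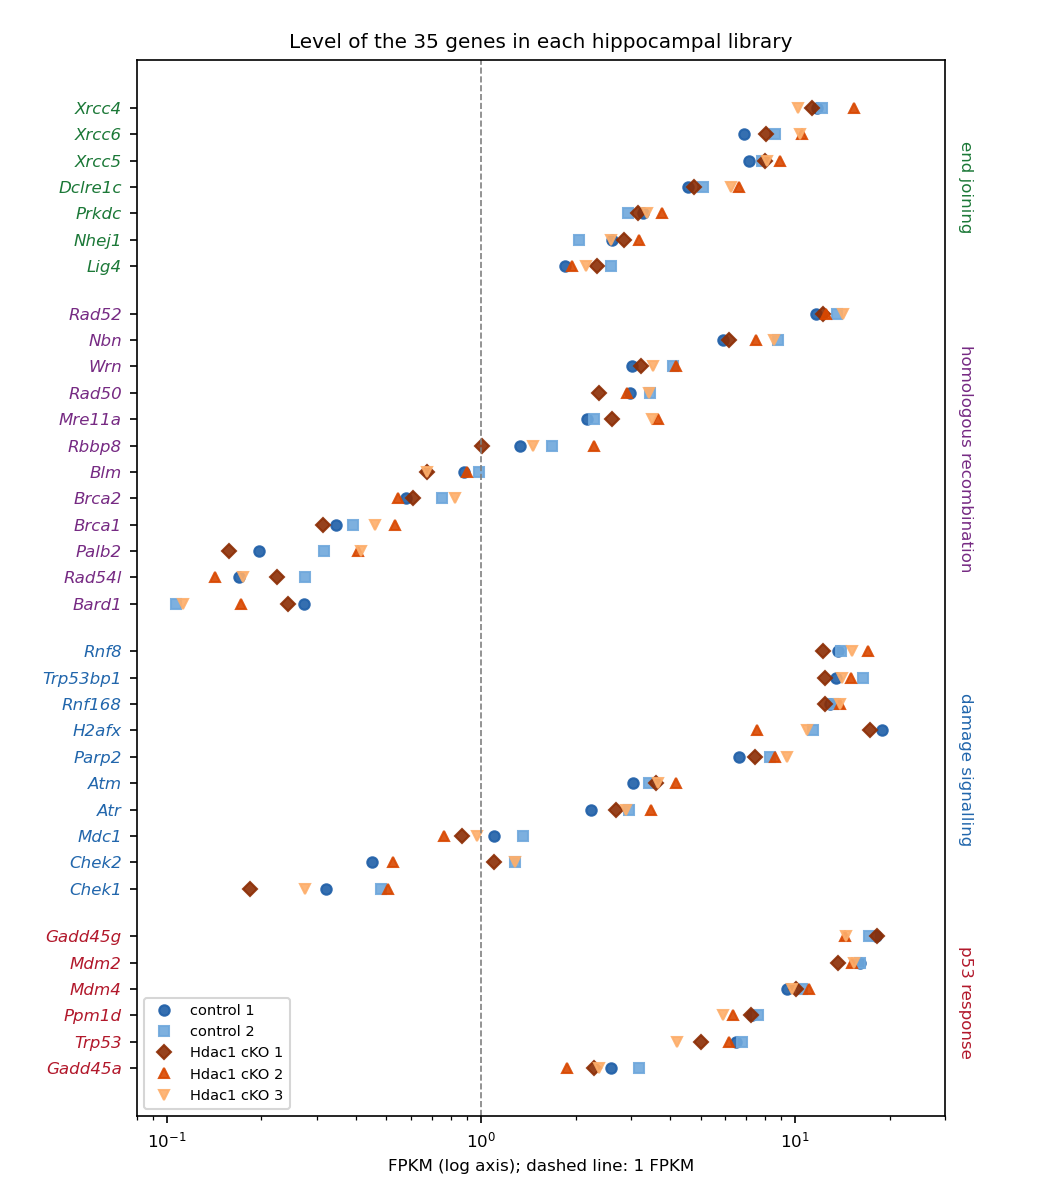
Level of each of the 35 genes in each of the 5 hippocampal libraries, in FPKM on a log axis, grouped by branch and ordered by mean, with a dashed line at 1 FPKM. The low end is held by recombination genes and the checkpoint kinases, down to *Bard1* with a mean of 0.181 FPKM, and the controls and cKO libraries are mixed for most genes.

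No member passed an adjusted p of 0.05 in the comparison of *Hdac1* cKO with control. Adjusted limma p-values of the 27 tested members ran from 0.955 to 0.992, while 1 gene of all 12740 passed (0.00785%). At an unadjusted p under 0.05, 1 of 27 members differed, *Mre11a*, against 4.36% of all genes tested. No member passed a fold change of 1.5 together with an unadjusted p of 0.05, a limit that 0.659% of all genes passed. The share of members called is thus near that of the whole transcriptome. The 95% intervals say how far a difference could lie beyond what was seen: for 20 of 27 members the interval stayed inside a 1.5-fold change in either direction on the log2(FPKM + 1) scale, as it did for 10482 of 12740 genes. The other 7 were *Xrcc6*, *Dclre1c*, *Mre11a*, *Mdc1*, *H2afx*, *Trp53* and *Gadd45a*. Single libraries moved most of these estimates. With 1 library left out in turn, the difference stayed within 1.5 times of its value for 4 of 27 members (14.8%), *Mre11a*, *Mdc1*, *Trp53* and *Ppm1d*, against 11.8% of all genes. All differences below are in log2(FPKM + 1), a measure that shrinks the change of a gene at a few FPKM, and most near or under 1 FPKM. The difference of *Mre11a*, for example, was 0.39 on this scale and 0.51 with a pseudocount of 0.1. An interval inside a 1.5-fold change on this scale can therefore be wider in FPKM.

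The branches leaned in different directions, each by a small amount. Of the tested members, 6 of 7 in end joining, 5 of 6 in homologous recombination and 5 of 8 in damage signalling had a higher mean in *Hdac1* cKO, against 1 of 6 in the p53 response. Across all tested genes 53.7% were higher, with a median difference of 0.01. With the library set as a term the counts were 5 of 7, 2 of 6, 5 of 8 and 1 of 6, against 51.2% of all genes. After rescaling to a common total they were 5 of 7, 1 of 6, 4 of 8 and 0 of 6, against 37.4%, so the direction of the recombination genes as a group depended on the setting. The median difference was 0.15 for end joining, 0.03 for homologous recombination, 0.06 for damage signalling and −0.17 for the p53 response. With the library set as a term these medians were 0.13, −0.03, 0.03 and −0.15. Within set 1 they were 0.09, 0.06, −0.08 and −0.07, and within set 2 they were 0.21, −0.05, 0.07 and −0.25. End joining thus kept a positive and the p53 response a negative median in both sets, whereas the sign of the other branches changed between the sets. Leaving out cKO 1 took the median of the p53 response to −0.26. For homologous recombination the median was −0.11 without control 1 and 0.17 without control 2, and for damage signalling it was 0.15 without cKO 1, −0.0011 without cKO 2 and 0.016 without control 1. The members were picked with results of these data known, and no test was made of a branch as a whole.

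**Figure D2:**
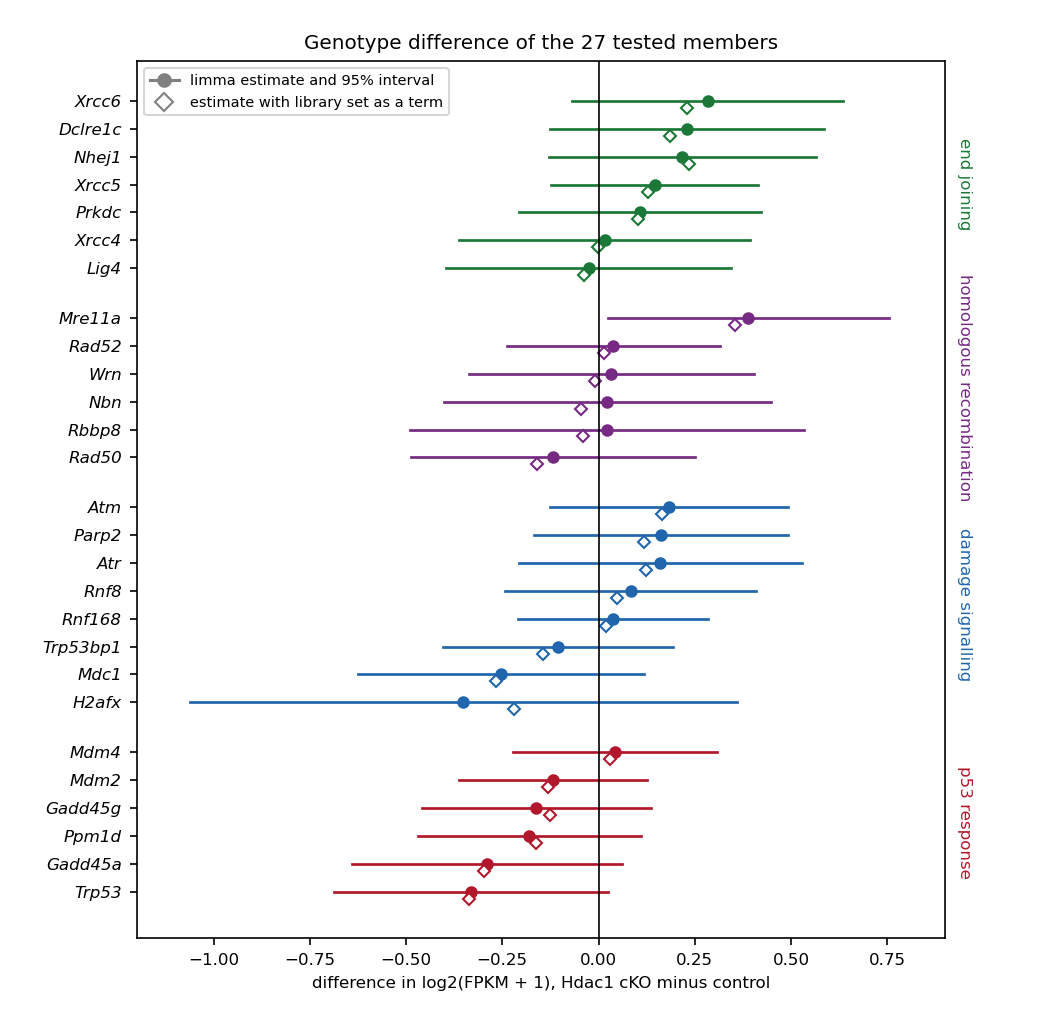
Difference in log2(FPKM + 1) between *Hdac1* cKO and control for the 27 tested members, by branch, with points for the limma estimate, lines for its 95% interval and open diamonds for the estimate with library set as a term. Only the interval of *Mre11a* leaves out 0, and 5 of 6 p53 response genes sit left of 0, against 1 of 7 end joining genes.

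The groups did not overlap for 8 members. All cKO libraries lay above both controls for *Xrcc5*, *Mre11a* and *Atm*, which is 3 of 27 members, against 11.0% of all genes. All cKO libraries lay below both controls for *Mdc1*, *Trp53*, *Mdm2*, *Gadd45a* and *Ppm1d*, which is 5 of 27 members, against 9.41% of all genes. Of these 5, 4 belong to the p53 response, which has 6 members. The other, *Mdc1*, entered the test at a mean of 1.01 FPKM only through its controls.

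End joining starts with the Ku heterodimer, the ring that slides onto a broken end. *Xrcc6*, its smaller subunit (chromosome 15, 81818265 to 81870515, plus strand), measured 6.88 and 8.61 FPKM in control mice and 8.06, 10.5 and 10.4 FPKM in cKO mice. Control 2 lay above cKO 1, so the groups overlapped, yet the cKO library was higher within each set. The difference was 0.28 (95% interval −0.07 to 0.64, limma adjusted p = 0.955), 0.14 without control 1 and 0.43 without control 2. With the library set as a term it was 0.23 (limma adjusted p = 0.526), and 2 of 27 members, *Xrcc6* and *Mre11a*, then fell under an unadjusted p of 0.05, against 9.34% of all genes. Some 7.68% of its exonic sequence overlaps *Pppde2* on the other strand. *Xrcc5*, the larger subunit, measured 7.11 and 7.85 FPKM in control mice and 8.03, 8.97 and 8.14 FPKM in cKO mice. Its groups did not overlap, but the gap between them was smaller than the spread between the controls, and the difference was 0.15 (−0.12 to 0.42), or 0.083 without control 1.

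The estimates of *Prkdc*, *Dclre1c* and *Nhej1* were also positive, with intervals that include 0. *Prkdc*, the catalytic subunit of DNA-PK that Ku recruits, measured 3.28 and 2.94 FPKM in control mice and 3.16, 3.76 and 3.37 FPKM in cKO mice, and the groups overlapped (0.11, or 0.047 without control 2 and 0.054 without cKO 2). Its difference was −0.04 within set 1 and 0.21 within set 2. *Dclre1c*, which encodes the nuclease Artemis that trims closed ends, measured 4.58 and 5.08 FPKM in control mice and 4.75, 6.63 and 6.27 FPKM in cKO mice. Both cKO libraries of set 2 stood above the controls, and cKO 1 stood between them (0.23, 95% interval −0.13 to 0.59, and 0.15 without cKO 2 and 0.36 without cKO 1). *Nhej1*, a factor that aligns the ends for ligation, measured 2.62 and 2.05 FPKM in control mice and 2.85, 3.17 and 2.59 FPKM in cKO mice. Only cKO 3 fell below a control, and by little. These values rest on an estimated 14.2 to 20.3 fragments per library, and the difference was 0.22 (−0.13 to 0.56), 0.095 without control 2 and 0.34 without control 1.

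The genes of the ligation step had estimates near 0. *Xrcc4*, the scaffold of the ligase, measured 11.7 and 12.2 FPKM in control mice and 11.3, 15.4 and 10.2 FPKM in cKO mice, which surround both controls. *Lig4*, the ligase, measured 1.85 and 2.60 FPKM in control mice and 2.33, 1.95 and 2.17 FPKM in cKO mice, all of them between the controls. Their differences were 0.02 (−0.36 to 0.39) and −0.03 (−0.40 to 0.34). That of *Lig4* was 0.23 within set 1 and −0.23 within set 2.

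Among genes of homologous recombination, the highest estimate was that of *Mre11a*, the nuclease of the MRN complex, which binds broken ends and starts their resection. *Mre11a* (chromosome 9, 14589098 to 14641567, plus strand) measured 2.18 and 2.29 FPKM in control mice and 2.62, 3.65 and 3.51 FPKM in cKO mice. The controls lay close together, every cKO library lay above them, and the cKO mean was 146% of the control mean. The difference was 0.39 (SE 0.16, 95% interval 0.03 to 0.75, limma adjusted p = 0.955), and 0.35 with the library set as a term (limma adjusted p = 0.51). It was 0.19 within set 1 and 0.48 within set 2. The gene no longer fell under an unadjusted p of 0.05 when either control, cKO 2 or cKO 3 was left out (differences of 0.32 to 0.41), nor after rescaling to a common total (0.38) or with no filter on low genes. The one member under that threshold was then *Trp53* (−0.41) after rescaling, against 4.32% of all genes, and *Mdc1* (−0.25) with no filter, against 4.76%. *Mre11a* held an estimated 82.5 to 125.8 fragments per library.

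The 250 bases upstream of the *Mre11a* start site are shown because it was the sole member called at the unadjusted threshold (RefSeq window located in NCBIM37, the same build as mm9, chr9:14588848-14589097, plus strand). Capitals mark GC boxes (GGGCGG or its complement CCGCCC) and CCAAT boxes (CCAAT or its complement ATTGG), both found by exact match on both strands.
*Mre11a*: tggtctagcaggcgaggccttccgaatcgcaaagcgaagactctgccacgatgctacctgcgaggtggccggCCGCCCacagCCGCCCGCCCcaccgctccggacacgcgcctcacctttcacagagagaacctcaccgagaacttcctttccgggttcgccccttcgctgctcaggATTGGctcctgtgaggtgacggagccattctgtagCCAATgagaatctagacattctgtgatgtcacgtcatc
The window holds 3 GC boxes, 2 of which overlap each other, and 2 CCAAT boxes.

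The partners of MRE11 in the complex gave estimates near or below 0. *Rad50*, the ATPase that tethers the ends, measured 2.99 and 3.46 FPKM in control mice and 2.37, 2.92 and 3.43 FPKM in cKO mice, and its difference was −0.12 (−0.49 to 0.25), with a range of −0.21 to −0.016 when 1 library was left out in turn. *Nbn*, which brings ATM to the complex, measured 5.89 and 8.79 FPKM in control mice and 6.16, 7.50 and 8.56 FPKM in cKO mice. Both set 1 libraries were the low ones, and the difference between genotypes was 0.02 (−0.40 to 0.45), against 0.41 between library sets (limma adjusted p = 0.0916).

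The remaining tested recombination genes gave differences near 0. *Rbbp8*, which promotes resection with MRN, was at 1.33 and 1.68 FPKM in control mice and ranged from 1.01 to 2.30 FPKM in cKO mice. *Rad52*, an annealing factor, ranged from 11.7 to 13.6 FPKM in control mice and from 12.2 to 14.2 FPKM in cKO mice. *Wrn*, the helicase lost in Werner syndrome, ranged from 3.02 to 4.09 FPKM in control mice and from 3.24 to 4.17 FPKM in cKO mice. For all 3 the groups overlapped and the estimate lay between 0.02 and 0.04. *Rad52* was the highest recombination gene of the list, at a level 55.3% of tested genes did not reach.

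The other recombination genes were scarce in both groups. *Brca1* measured 0.346 and 0.393 FPKM in control mice and 0.313, 0.534 and 0.460 FPKM in cKO mice. *Brca2*, a tumour suppressor of the breast and ovary, measured 0.578 and 0.751 FPKM in control mice and 0.605, 0.545 and 0.828 FPKM in cKO mice. Its transcript is long (10724 nt), so even this level corresponds to an estimated 29.9 to 56.2 fragments per library. *Palb2*, the link between both, ranged from 0.158 to 0.415 FPKM over the 5 libraries. *Bard1*, the partner of BRCA1, ranged from 0.107 to 0.273 FPKM, and *Rad54l*, a motor protein that moves along DNA, from 0.142 to 0.276 FPKM. The helicase *Blm* measured 0.884 and 0.988 FPKM in control mice and 0.671, 0.903 and 0.672 FPKM in cKO mice. The groups overlapped for each of these 6 genes, and *Rad54l*, *Palb2* and *Bard1* rest on an estimated 2.2 to 10.3 fragments per library. In a fit with no filter on low genes the intervals were −0.21 to 0.11 for *Rad54l*, −0.27 to 0.42 for *Palb2* and −0.26 to 0.23 for *Bard1*, on a scale that compresses changes at such levels.

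Several members share a promoter region with a neighbour. A protein-coding gene starting within 1000 nt on the opposite strand, head to head, was found for 10 of 35 members (28.6%), against 10.9% of 19394 protein-coding genes measured. Among tested genes the share was 6 of 27 (22.2%), against 15.2% of 11642. The pairs were *Prkdc* with *Mcm4*, *Xrcc4* with *Tmem167*, *Lig4* with *Abhd13*, *Rad54l* with *Pomgnt1*, *Brca1* with *Nbr1*, *Palb2* with *Dctn5*, *Wrn* with *Purg*, *Atm* with *Npat*, *Chek2* with *Hscb* and *Trp53* with *Wrap53*. The levels within a pair ranged from near equal to far apart. The mean of *Pomgnt1* was 30.04 FPKM, or 152 times that of *Rad54l*. *Dctn5* had a mean of 40.8 FPKM, which is 137 times that of *Palb2*. *Nbr1* was at 40.3 FPKM, 98.6 times the level of *Brca1*. By contrast *Wrap53* (6.12 FPKM) and *Trp53* (5.73 FPKM) were close to equal, as were *Mcm4* (3.29 FPKM) and *Prkdc* (3.30 FPKM). *Npat* stood at 1.39 times the level of *Atm*, and *Tmem167* at 0.661 times that of *Xrcc4*. Thus 4 of 10 pairs lay within 1.6-fold either way, against 313 of 1762 head-to-head genes measured with both levels above 0 (17.8%). A neighbour at 10 times the level or more was found for 4 of 10 members, *Chek2* included, against 273 of the 1762 (15.5%), and at 90 times or more for 3 of 10, against 67 (3.80%). These limits were chosen after the values were seen. No neighbour passed an unadjusted p of 0.05, and their differences ran from −0.20 for *Mcm4* to 0.16 for *Purg*.

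The sequence between the start sites is shown for the 3 most unequal pairs and for the near-equal pair of *Trp53*, read along the strand of the member from the start of the neighbour to that of the member (NCBIM37, the same build as mm9, GENCODE gene starts). Capitals mark GC boxes and CCAAT boxes as above. The *Rad54l* stretch is chr4:115796296-115796444 (minus strand), that of *Brca1* is chr11:101413270-101413462 (minus strand), that of *Palb2* is chr7:129276461-129276554 (minus strand) and that of *Trp53* is chr11:69393758-69393860 (plus strand).
*Rad54l*: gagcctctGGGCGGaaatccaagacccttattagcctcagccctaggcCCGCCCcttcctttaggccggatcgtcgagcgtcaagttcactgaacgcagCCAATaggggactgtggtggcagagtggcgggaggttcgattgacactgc
*Brca1*: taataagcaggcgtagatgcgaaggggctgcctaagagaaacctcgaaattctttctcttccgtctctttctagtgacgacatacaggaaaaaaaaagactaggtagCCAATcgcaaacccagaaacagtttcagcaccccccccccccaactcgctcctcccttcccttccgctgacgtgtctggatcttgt
*Palb2*: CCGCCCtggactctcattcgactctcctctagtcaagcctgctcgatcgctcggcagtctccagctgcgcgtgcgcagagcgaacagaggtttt
*Trp53*: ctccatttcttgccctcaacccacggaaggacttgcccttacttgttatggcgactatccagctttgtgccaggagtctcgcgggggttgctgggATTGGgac
The near-equal pair holds a CCAAT box and no GC box, as does that of *Brca1*, while that of *Palb2* holds a GC box and no CCAAT box.

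**Figure D3:**
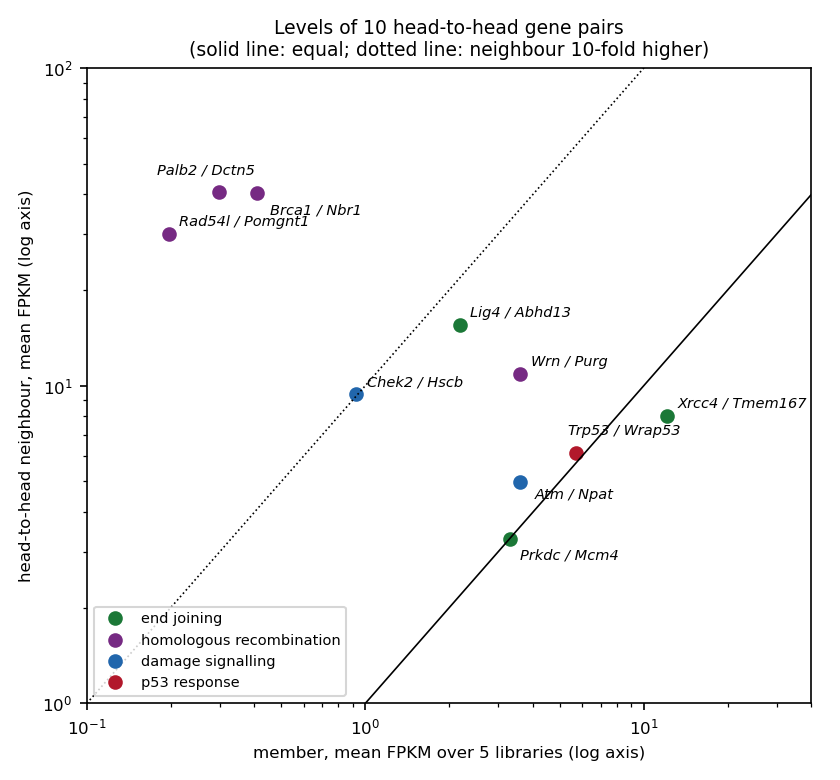
Mean FPKM over the 5 libraries of 10 members (horizontal log axis) and of the gene that starts head to head with each (vertical log axis), coloured by branch, with a solid line at equal levels and a dotted line where the neighbour is 10-fold higher. The 3 recombination genes *Rad54l*, *Brca1* and *Palb2* lie far above the dotted line, and *Prkdc* and *Trp53* lie on or next to the solid line.

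Motifs in the 250 bases upstream of RefSeq start sites were counted for the 29 members with a window (RefSeq, GRCm38.p6). An E2F site (TTTCCCGC or TTTGGCGC, or the complement of either, GCGGGAAA or GCGCCAAA) stood in 5 of 29 members (17.2%), *Xrcc6*, *Brca2*, *Bard1*, *Chek2* and *Mdc1*. It stood in 1.51% of all 27025 genes of the table and in 2.77% of 9428 tested genes with a window, against 2 of 21 tested members (9.52%), *Xrcc6* and *Mdc1*. E2F proteins are known to drive genes of DNA replication and repair in dividing cells. A GC box stood in 20 of 29 members (69.0%), against 35.4% of all genes of the table, and in 16 of 21 tested members (76.2%), against 65.1% of tested genes. A CCAAT box stood in 15 of 29 (51.7%), against 37.5% of all genes, and in 11 of 21 tested members (52.4%), against 40.7% of tested genes. A match is a description of these letters and not a site of binding.

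Damage signalling opens with the kinases. *Atm* (chromosome 9, 53247254 to 53344845, minus strand), which answers double-strand breaks, measured 3.05 and 3.43 FPKM in control mice and 3.60, 4.19 and 3.66 FPKM in cKO mice. The groups did not overlap, although the gap of cKO 1 over control 2 was smaller than the spread between the controls, and the difference was 0.18 (−0.13 to 0.49, limma adjusted p = 0.955), or 0.12 without control 1. *Atr*, which answers single-stranded DNA, measured 2.24 and 2.97 FPKM in control mice and 2.69, 3.48 and 2.90 FPKM in cKO mice, and its groups overlapped (0.16, −0.21 to 0.53). Its difference was 0.014 without control 1, 0.31 without control 2 and 0.080 without cKO 2. Their downstream kinases were low. *Chek1* ranged from 0.184 to 0.507 FPKM, and *Chek2* measured 0.450 and 1.29 FPKM in control mice and 1.10, 0.524 and 1.28 FPKM in cKO mice, on an estimated 6.0 to 19.0 fragments.

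The proteins that gather at the break follow. *Mdc1*, the adaptor that reads phosphorylated histone H2AX, measured 1.10 and 1.36 FPKM in control mice and 0.869, 0.760 and 0.974 FPKM in cKO mice. All cKO libraries were lower, with a cKO mean at 70.6% of the control mean, and the difference was −0.25 (−0.63 to 0.12, limma adjusted p = 0.955). Its mean of 1.01 FPKM passed the filter of 1 FPKM only through the controls, as every cKO value was lower than that limit. *Trp53bp1*, which shields ends from resection, measured 13.5 and 16.5 FPKM in control mice and 12.5, 15.0 and 14.1 FPKM in cKO mice. Its groups overlapped (−0.11, −0.40 to 0.19), and 15.0% of its exonic sequence overlaps *Tubgcp4* on the other strand.

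The groups overlapped for the ubiquitin ligases and PARP2. *Rnf168* measured 12.9 and 13.2 FPKM in control mice and 12.5, 13.9 and 13.9 FPKM in cKO mice, with a difference of 0.04 (−0.21 to 0.28) that ran from 0.013 to 0.086 with 1 library left out in turn. *Rnf8* ranged from 12.3 to 17.0 FPKM, but 41.6% of its annotated exonic sequence is shared with *Ftsjd2* on the same strand, so its values are uncertain. The difference of *Rnf8* was −0.14 within set 1 and 0.19 within set 2. *Parp2*, which senses strand breaks, measured 6.65 and 8.33 FPKM in control mice and 7.45, 8.61 and 9.41 FPKM in cKO mice, with overlapping groups (0.16, −0.17 to 0.49). Its difference was 0.019 without control 1, 0.31 without control 2, 0.24 without cKO 1 and 0.093 without cKO 3.

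*H2afx*, which encodes the histone variant phosphorylated around breaks, differed between the library sets. It was at 18.9 FPKM in control 1 and 17.3 FPKM in cKO 1, the libraries of set 1. It was at 11.4, 7.58 and 10.9 FPKM in control 2, cKO 2 and cKO 3, the libraries of set 2. Set 2 was lower by a log2 difference of −0.78 with genotype in the fit (limma adjusted p = 0.0407), and this was 1 of 27 members to pass an adjusted p of 0.05 between sets, against 3.09% of all genes. The genotype difference was −0.35 (−1.06 to 0.36, limma adjusted p = 0.956), −0.22 with the library set as a term, −0.12 within set 1 and −0.30 within set 2. The estimate rests on the make-up of the groups, since it was −0.64 without cKO 1, where it fell under an unadjusted p of 0.05, and came to −0.01 or −0.69 with 1 of the controls left out. A pseudogene, *Gm11336*, shares 96.1% of 203 nt with its transcript.

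**Figure D4:**
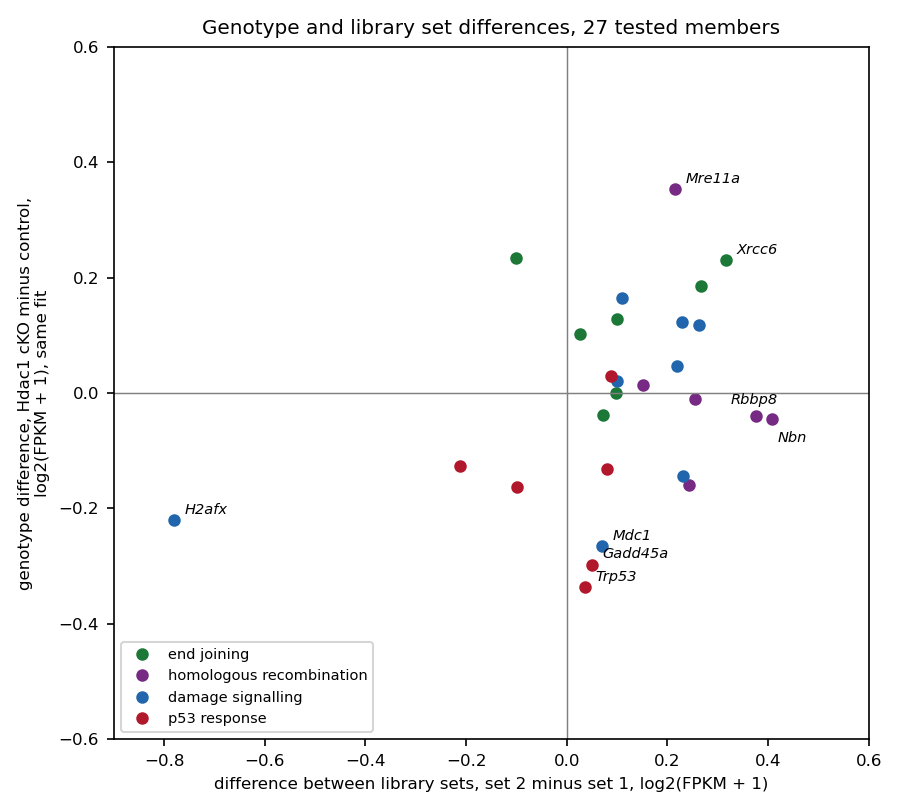
Difference between library sets (horizontal axis) and between genotypes (vertical axis) of the 27 tested members, both in log2(FPKM + 1) and from the same limma fit, coloured by branch. *H2afx* stands apart at −0.78 on the horizontal axis, and 23 of 27 members lie right of 0, which means higher in set 2, as 59.4% of all genes were.

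In the p53 response 5 of 6 members had a lower mean in *Hdac1* cKO. *Trp53*, which encodes p53 (chromosome 11, 69393861 to 69405375, plus strand), measured 6.50 and 6.78 FPKM in control mice and 5.003, 6.14 and 4.21 FPKM in cKO mice. All cKO libraries lay below the controls, which were close together, and the cKO mean was 77.2% of the control mean. The difference was −0.33 (SE 0.15, 95% interval −0.69 to 0.02, limma adjusted p = 0.955), with −0.34 under the library set term, −0.32 within set 1 and −0.35 within set 2. Without cKO 2, the cKO library nearest to the controls, it was −0.45, under an unadjusted p of 0.05. It was −0.22 without cKO 3, the lowest library, and with the replicate number as a block, above that threshold in both.

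Its regulators bind or switch off the protein. *Mdm2*, the ubiquitin ligase that p53 itself induces, measured 16.1 and 16.0 FPKM in control mice and 13.7, 15.1 and 15.4 FPKM in cKO mice. The groups did not overlap, and the difference was small (−0.12, −0.36 to 0.12, and −0.070 without cKO 1). *Mdm4*, its inhibitory partner, measured 9.42 and 10.5 FPKM in control mice and 10.03, 11.1 and 9.80 FPKM in cKO mice, with groups that overlapped (0.04). *Ppm1d*, the phosphatase that ends the signal and is a p53 target, measured 7.30 and 7.60 FPKM in control mice and 7.23, 6.33 and 5.88 FPKM in cKO mice. The cKO library of set 1 lay just below the controls and those of set 2 were lower still (−0.18, −0.47 to 0.11).

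The effectors were the GADD45 genes, which act in growth arrest and DNA demethylation. *Gadd45a* (chromosome 6, 66985090 to 66987451, minus strand), a known p53 target, measured 2.59 and 3.18 FPKM in control mice and 2.29, 1.88 and 2.37 FPKM in cKO mice. All cKO libraries were lower, and the cKO mean was 75.5% of the control mean. The difference was −0.29 (SE 0.15, −0.64 to 0.06, limma adjusted p = 0.955), or −0.18 without control 2 and −0.40 without control 1, with an estimated 11.8 to 25.6 fragments per library, and 19.1% of its exonic sequence overlaps *E230016M11Rik* on the other strand. *Gadd45g* measured 18.1 and 17.2 FPKM in control mice and 18.3, 14.4 and 14.5 FPKM in cKO mice. Here cKO 1 was the highest library and the other two cKO libraries the lowest (−0.16, −0.46 to 0.14, and −0.27 without cKO 1 and −0.11 without either of the others).

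**Figure D5:**
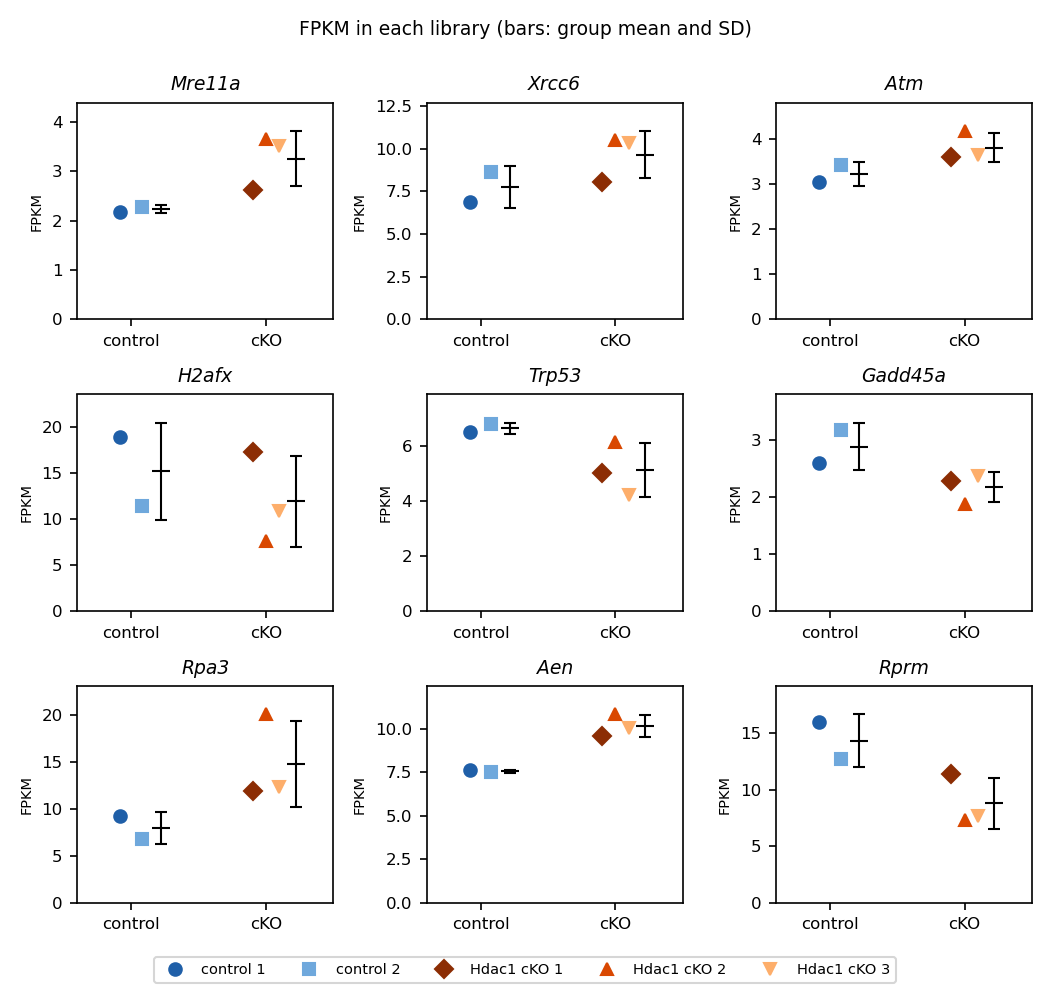
FPKM of 9 genes in each library, with symbols for the 5 libraries and bars for the group mean and SD (control n = 2, *Hdac1* cKO n = 3), each axis starting at 0. *Mre11a*, *Atm*, *Rpa3* and *Aen* are higher in every cKO library, *Trp53*, *Gadd45a* and *Rprm* are lower in every cKO library, and *H2afx* splits by library set.

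Other genes of the same pathways were also compared. Of 104 further genes found, 75 were tested, and 44 had a higher and 31 a lower mean in *Hdac1* cKO, with a median difference of 0.04. None passed a limma adjusted p of 0.05, and 3 of 75 passed an unadjusted p of 0.05, against 4.36% of all genes, a share near the background. Of these, *Rpa3* and *Rprm* also passed a fold change of 1.5, against 0.659% of all genes. Higher means were found for 5 of 8 genes of end joining, 10 of 17 of recombination and resection, 19 of 27 of damage signalling and 10 of 23 p53 targets. The median differences of these groups were 0.04, 0.05, 0.06 and −0.05. Those of end joining and of the p53 targets were thus nearer to the 0.01 of all genes than the 0.15 and −0.17 of the members, and within set 2 the further end joining genes had a median of −0.06. The median of the p53 targets was −0.00030 within set 1, 0.0099 within set 2 and 0.016 with the replicate number as a block, so its sign was not stable.

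*Rpa3* encodes the smallest subunit of RPA, the complex that coats single-stranded DNA (chromosome 6, 8205936 to 8209173, minus strand). It measured 9.21 and 6.76 FPKM in control mice and 11.9, 20.1 and 12.4 FPKM in cKO mice. Every cKO library was higher, with cKO 2 well above the other two, and the difference was 0.79 (SE 0.22, 95% interval 0.27 to 1.305, limma adjusted p = 0.955). It was 0.34 within set 1 and 1.11 within set 2, and it ran from 0.56 to 0.99 with 1 library left out in turn. The gene no longer fell under an unadjusted p of 0.05 without control 2 (0.59) or with no filter on low genes. The other subunits, named after their values were seen, were *Rpa1* at 24.1 and 28.8 FPKM in control mice and 25.2 to 31.9 FPKM in cKO mice, and *Rpa2* at 8.51 and 7.84 FPKM in control mice and 8.55, 10.8 and 9.91 FPKM in cKO mice. *Rpa2* was also higher in every cKO library (0.22, limma adjusted p = 0.955), while the groups of *Rpa1* overlapped.

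*Aen*, a nuclease gene that p53 induces in apoptosis (chromosome 7, 86040740 to 86056095, plus strand), measured 7.62 and 7.49 FPKM in control mice and 9.58, 10.8 and 10.01 FPKM in cKO mice. The gap between the groups was wider than the spread within either, and the cKO mean was 134% of the control mean. The difference was 0.38 (SE 0.11, 0.12 to 0.64, limma adjusted p = 0.955), with 0.30 within set 1 and 0.42 within set 2. *Rprm*, a p53 target that halts the cell cycle (chromosome 2, 53936504 to 53937963, minus strand), measured 16.0 and 12.7 FPKM in control mice and 11.4, 7.28 and 7.66 FPKM in cKO mice. Every cKO library was lower, and the cKO mean was 61.2% of the control mean (−0.67, SE 0.19, −1.10 to −0.23, limma adjusted p = 0.955). It no longer fell under an unadjusted p of 0.05 without control 1 (−0.51) or with no filter on low genes. The estimates of these p53 targets thus had opposite signs.

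*Rprm* is also known from cortical neurons. A list of 10 genes of deep-layer cortical neurons, chosen after the values were seen, summed to 111.0 and 111.8 FPKM in control mice and to 85.8 to 96.7 FPKM in cKO mice, with 7 of 8 tested genes lower and a median difference of −0.21. The largest fall in FPKM was that of *Tshz2*, from 21.7 and 23.8 FPKM in control mice to 9.03 to 13.7 FPKM in cKO mice. In the same list *Hs3st4* (−0.01) and *Bcl11b* (−0.08) hardly differed and *Syt6* (0.08) was higher. A list of 6 genes of hippocampal neurons, also chosen after the values were seen, had 6 of 6 genes lower and a median of −0.18, though its sums overlapped (119 and 140 FPKM in control mice, 93.3 to 133 FPKM in cKO mice). The part of these in the difference of *Rprm* was not tested. In bulk tissue, fewer cells of a type and less RNA per cell cannot be told apart.

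The levels of cell type markers are given beside these differences. The 8 astrocyte markers summed to 2542 and 2573 FPKM in control mice and to 2780 to 2936 FPKM in cKO mice, so all cKO libraries were higher, with 5 of 8 genes higher. Of these 5, 2 passed an unadjusted p of 0.05, while *Aldh1l1* (−0.02), *Aldoc* (−0.04) and *Sox9* (−0.04) had slightly lower means. *Aqp4*, the water channel of astrocyte endfeet, measured 54.4 and 54.4 FPKM in control mice and 89.4 to 98.4 FPKM in cKO mice (log2 difference 0.78, limma adjusted p = 0.175). *Gfap*, their intermediate filament, measured 309 and 263 FPKM in control mice and 364 to 415 FPKM in cKO mice (0.43, limma adjusted p = 0.955). The difference of *Aqp4* exceeded that of every tested member in size. Of 10 neuron markers 9 had a lower mean in *Hdac1* cKO, though their sums overlapped (2827 to 3057 FPKM and 2676 to 2976 FPKM). Of the 10, 1 passed an unadjusted p of 0.05, *Stmn2* (−0.24, limma adjusted p = 0.955), with every cKO library below both controls. The genes of dividing cells other than *Pcna* (8 genes) summed to 5.81 and 5.29 FPKM in control mice and to 4.56 to 6.42 FPKM in cKO mice, with *Cdk1* listed at 0 in cKO 3. The 5 choroid plexus markers ranged from 6.21 to 165 FPKM in control mice and from 24.9 to 599 FPKM in cKO mice, in no order of genotype. Microglia markers summed to 176 and 214 FPKM in control mice and to 172 to 212 FPKM in cKO mice. Their part in the differences of the repair genes was not tested.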

How the data were processed

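RNA-seq was performed on hippocampi of 2 control and 3 *Hdac1* cKO mice from TruSeq total RNA libraries. The authors deposited FPKM per gene symbol, obtained with TopHat2 and Cufflinks 2.0.0 against mm9, and no read totals were used here. Whether counting used the strand is not given in the sources used here. Values were tested with limma 3.58.1 (R 4.3.3, eBayes with a variance trend, two-sided) on log2(FPKM + 1) for the 12740 genes that averaged 1 FPKM or more, and genotype was the sole term. Adjusted p-values are Benjamini-Hochberg values over all of them. The fit was tested on simulated data with known changes. Branch and pathway lists were described by counts and medians. Named genes were the 35 members, *Hdac1* and pathway genes with an unadjusted p under 0.05. The members and lists were chosen with earlier results of these data known. Libraries were placed in a set when over 10% of genes under a mean of 0.3 FPKM shared a ratio within 0.05 log2 units. Coordinates and exon overlaps are from GENCODE vM1 (NCBIM37), counted from 1, and copies are transcripts with at least 95% identity over at least 200 nt. Alternatives changed the pseudocount, filter, scaling, variance trend, blocks and libraries.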

Additional observations from a re-analysis of the deposited data

How the results depend on the processing

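At this depth and with 2 controls, no member passed an adjusted p of 0.05 under any alternative run (lowest 0.424, *H2afx* with the replicate block), which does not show that the genes are unchanged. Of the 27 tested members 17 kept their direction under every alternative. No cause was tested for the changes below. Without cKO 1, 4 members (*Xrcc6*, *Dclre1c*, *Mre11a* and *H2afx*) fell under an unadjusted p of 0.05, against 7.61% of all genes. The count was 1 without cKO 2, against 3.04%, and 0 without cKO 3, against 3.38%. It was 0 with a minimum mean of 5 FPKM, which drops *Mre11a*, against 4.38%. With the library set as a term it was 2, against 9.34%. In the pathway list the count was 2 to 6 of 75 with 1 library left out, against 3.04% to 7.61% of all genes at those settings (6 and 7.61% without cKO 1), and 5 after rescaling to a common total (TPM), against 4.32% of all genes. A lone control is assumed to vary like the other libraries.

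The replicate numbers of the titles were also taken as a block. Same-numbered libraries deviated together across genes (r = 0.402 for number 1 and 0.269 for number 2), but the number also follows the library sets, and control 2 also correlated with cKO 3 of its set (r = 0.151). With 2 controls the deviations of 1 mirror those of the other, and those of the cKO libraries cancel out. These r values are therefore not separate observations of a pairing. As far as the labels say, same-numbered libraries share only a number, and cKO 3 then has no partner and adds nothing. This block called 5 of 75 pathway genes and 1 of 27 members, both below the 11.2% of all genes, gave −0.33 for *H2afx* under an unadjusted p of 0.05, took *Mre11a* to 0.34 and past it, and turned *Nbn* (−0.075) and *Rad52* (−0.023).

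Rescaling to TPM shifted the median difference of all genes to −0.05, from 0.01. It took the median of the p53 response to −0.24, end joining to 0.090, homologous recombination to −0.024 and damage signalling to −0.0014, and turned *Xrcc4* (−0.048), *Nbn* (−0.036), *Rbbp8* (−0.024), *Rad52* (−0.024), *Wrn* (−0.020), *Rnf168* (−0.025) and *Mdm4* (−0.018). The library set term turned *Xrcc4* (−0.00064), *Nbn* (−0.045), *Rbbp8* (−0.040) and *Wrn* (−0.0099). With 1 library left out in turn, the p53 response median ran from −0.26 to −0.14. The genes that changed sign then ran from −0.14 to 0.13 for *Xrcc4*, from −0.19 to 0.14 for *Lig4*, from −0.23 to 0.28 for *Nbn*, from −0.17 to 0.19 for *Rbbp8* and from −0.061 to 0.14 for *Rad52*. They ran from −0.14 to 0.20 for *Wrn*, from −0.24 to 0.027 for *Trp53bp1*, from −0.015 to 0.21 for *Rnf8* and from −0.027 to 0.11 for *Mdm4*.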
